A study of Mus musculus with 4 samples.

Results

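The genes described here are the 10 genes of brain steroid synthesis and turnover Star, Tspo, Cyp11a1, Fdx1, Srd5a1, Srd5a3, Akr1c14, Cyp19a1, Hsd11b1 and Cyp7b1. They were chosen by name, and all 10 are among the 33696 genes of the deposited matrices. The label of neurosteroid synthesis enzymes is loose for a few of them: Star and Tspo are cholesterol-handling proteins, Fdx1 is an electron carrier, and Hsd11b1 and Cyp7b1 act on glucocorticoids, oxysterols and androgen precursors. Each captured RNA molecule carries a unique molecular identifier (UMI), and these were counted in single nuclei from the cortex of pregnant mice at E13.5 of gestation (2 libraries) and of non-pregnant control mice (2 libraries). All came from wild-type C57BL/6JRj females of about 12 weeks. The labels call the 2 libraries of a group biological replicates without saying how many mice each holds, so n = 2 libraries per group throughout. Actinomycin D, which blocks transcription, was in the nuclear buffers of both groups. The sources used here do not name the dissected area of cortex, so area and pregnancy cannot be told apart.

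Neurosteroids are made from cholesterol, which must reach the inner mitochondrial membrane before CYP11A1 can cut its side chain to give pregnenolone. Progesterone, made in the brain or delivered by blood, is reduced by a 5α-reductase and then by a 3α-hydroxysteroid dehydrogenase to allopregnanolone, a potent positive modulator of GABA-A receptors whose level rises in pregnancy. The remaining branches lead to oestrogens through aromatase, to reactivated glucocorticoid through HSD11B1, and to 7α-hydroxylated steroids through CYP7B1.

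The libraries held 97875766 to 116860425 UMIs and medians of 13187.5 to 17723 UMIs and 3940 to 4527 genes per barcode. After filtering, 25033 of 26816 barcodes remained, and 95 barcode sequences occurred in more than 1 library. Clusters were built without the 10 genes and without 52 other pathway genes, and were named from marker lists, so that each name means resemblance by markers. The 7 classes held 23322 nuclei: 16081 excitatory neurons, 2734 inhibitory neurons, 736 astrocytes, 1909 oligodendrocytes, 502 oligodendrocyte precursors (OPC), 1156 microglia and 204 vessel cells. In the names of excitatory types the layer is followed by IT for intratelencephalic, ET for extratelencephalic, NP for near-projecting or CT for corticothalamic cells. Clusters 22, 27, 28 and 29 came almost wholly from pregnant libraries and were kept out of the classes, while cluster 9 of the L2/3 IT type came mostly from them (484 and 359 nuclei in pregnant libraries, against 79 and 3 in non-pregnant ones). Median depth differed between classes: it was 14643 to 19875 UMIs per excitatory and 11716 to 15635.5 per inhibitory nucleus over the libraries, 5700 to 8300 per astrocyte, 6079 to 7787.5 per OPC, 3306 to 4296 per oligodendrocyte, 2596.5 to 3290 per microglial nucleus and 2300 to 3110 per vessel nucleus. Levels are given as CPM, a gene's UMIs for every 1000000 UMIs of the same class and library, and shares of positive nuclei as the share expected with every nucleus thinned to 2000 UMIs. Shallower nuclei were left out of the shares: among microglia 21 and 21 in pregnant and 41 and 14 in non-pregnant libraries, and among vessel cells 21 and 13 in pregnant and 6 and 6 in non-pregnant libraries. Reads come from the 3′ end and are not scaled to length, so levels are compared between cells and not between genes. With 2 libraries per group, the values of the groups often fail to overlap without any effect. Of the 10 genes, 4 did not overlap in whole libraries and 1 in astrocytes, and all 10 overlapped in vessels. The share of all genes without overlap was not computed, so such orders are given as description only.

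The 10 genes differed in how much was measured. Over the 4 libraries Cyp7b1 had 23932 UMIs, Cyp11a1 2418, Fdx1 2174, Srd5a1 1642, Hsd11b1 1637, Srd5a3 1368 and Star 1227, whereas Tspo had 133, Cyp19a1 29 and Akr1c14 27. Other genes of the pathway were as uneven. Of 53 listed, 52 were in the files, 2 of these (Cyp11b2 and Sult1e1) had no UMI, 22 had fewer than 100 and 23 had at least 1000. The 3β-hydroxysteroid dehydrogenases, which turn pregnenolone into progesterone, had 42 UMIs for Hsd3b1, 233 for Hsd3b2, 507 for Hsd3b3 and 71 for Hsd3b6. Cyp17a1, the enzyme that opens the androgen branch, had 5 UMIs, and Cyp21a1, the steroid 21-hydroxylase of the corticosteroid branch, had 3.

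**Figure D1:**
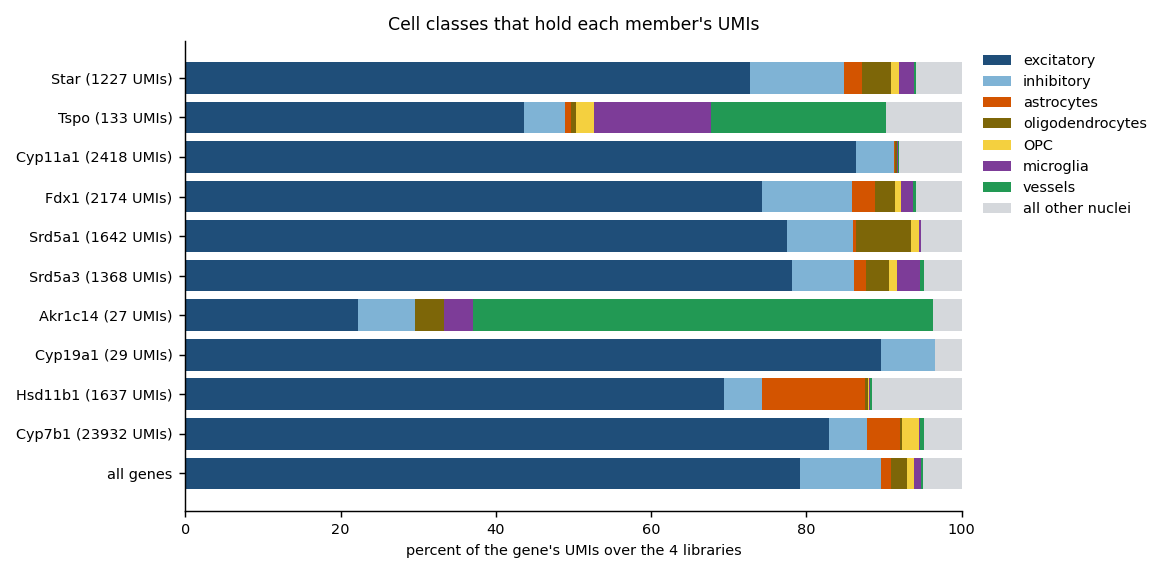
Percent of each gene's UMIs over the 4 libraries (x axis) that lay in each cell class (colours), with the gene's total in its row label and all genes together in the lowest row. Excitatory neurons held 79.2% of all UMIs and 86.4% of Cyp11a1 UMIs, while vessels held 59.3% of Akr1c14 UMIs and astrocytes 13.3% of Hsd11b1 UMIs.

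To ask where the genes were expressed, each class was compared with the mean of the other 6 in an edgeR quasi-likelihood fit with the library as a block, on counts summed per library and class, with Benjamini-Hochberg adjustment over the 28427 genes tested. Genes with an adjusted p below 0.05 are called. A filter on low counts, which passed 7 of the 10 genes and left out Star, Cyp11a1 and Cyp19a1, lets a rare gene through by way of the class where it is high. All class values are therefore from the fit without that filter, which was added after the data had been seen. Its adjusted p-values by edgeR ran smaller for strong differences, such as 4.71e-104 for Hsd11b1 in astrocytes, against 8.33e-17 with the filter. Calls of higher expression were common for genes in general, and the counts are read against that background. In excitatory neurons 4 of 10 were called higher (30.8% of all genes) and in inhibitory neurons 1 of 10 (25.3%). In astrocytes 3 of 10 were called higher (16.3% of all genes), in oligodendrocytes 1 (16.1%) and in OPC 1 (13.1%). In microglia 2 of 10 were called higher (17.3% of all genes), and in vessels 3 (11.1%). With 10 genes in each class, these counts describe the list and say nothing particular to it.

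**Figure D2:**
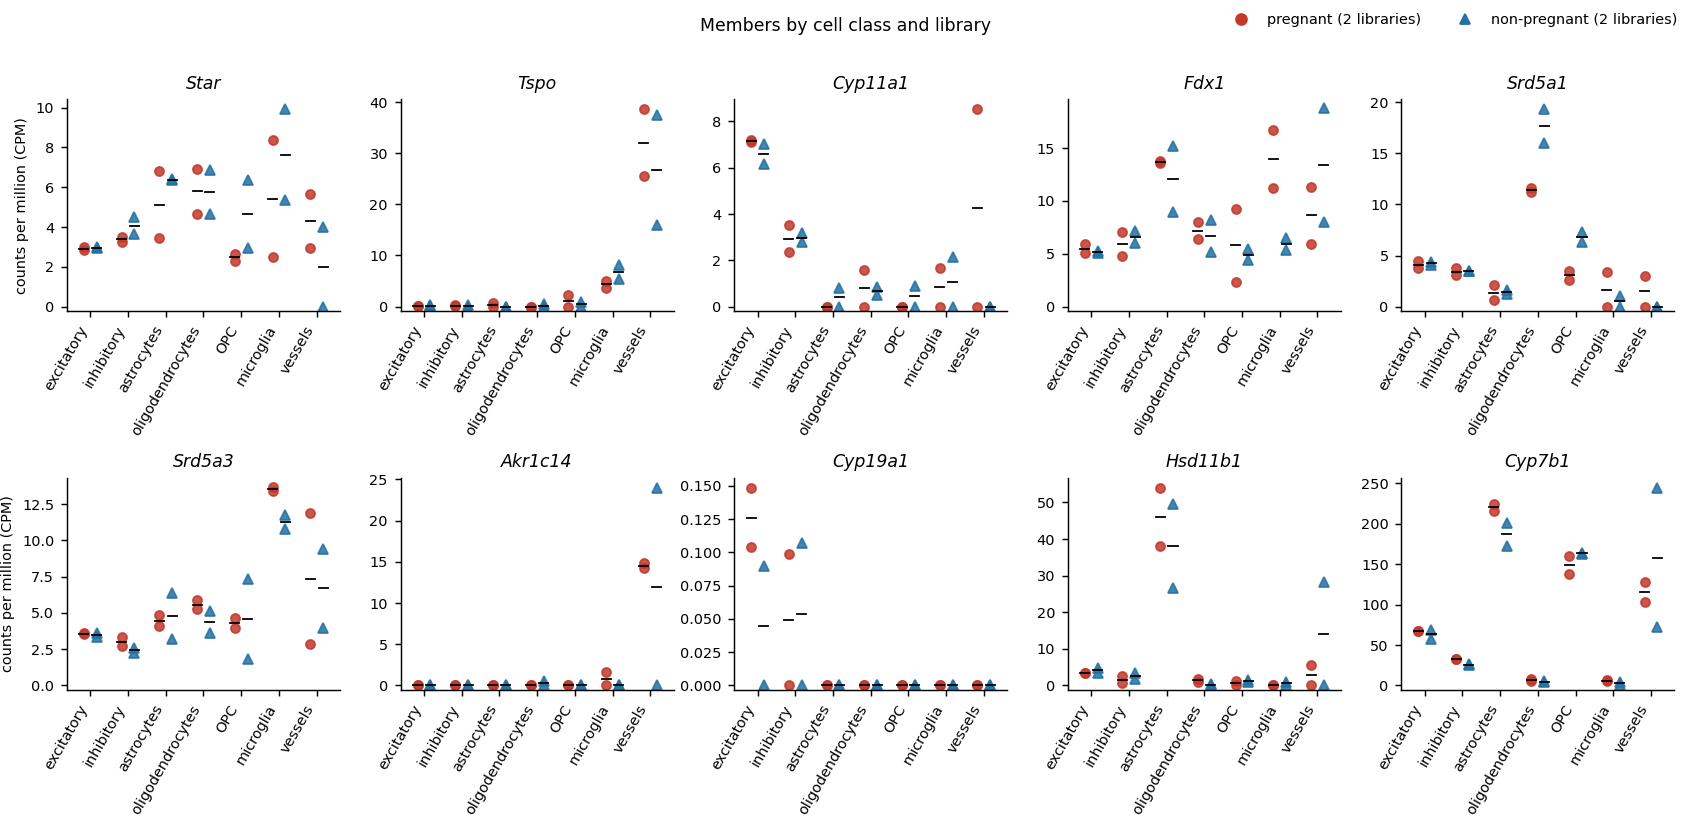
CPM of each of the 10 genes (one panel each, y axis with its own scale starting at 0) in the 7 cell classes, with pregnant libraries as red circles left of non-pregnant libraries as blue triangles and the group mean as a black bar. By mean, Tspo and Akr1c14 stand highest in vessels, Hsd11b1 and Cyp7b1 in astrocytes, Srd5a1 in oligodendrocytes and Cyp11a1 in excitatory neurons, while Star lies between 0 and 9.91 CPM in all 7 classes.

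Star, the carrier that delivers cholesterol to the inner mitochondrial membrane in steroid-making glands, was low and even. In excitatory neurons it stood at 2.98 and 2.83 CPM in pregnant libraries and at 2.93 and 3.01 CPM in non-pregnant ones, and in astrocytes at 6.80 and 3.45 CPM in pregnant and 6.36 and 6.39 CPM in non-pregnant libraries. The groups overlapped in both classes. The thinned share of nuclei with a Star UMI ranged from 0.282% in vessels, where 4 UMIs were counted, to 1.43% in microglia, without a class that lacked it. No class was called for Star, and the smallest adjusted p by edgeR was 0.162, in oligodendrocytes.

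Tspo, a protein of the outer mitochondrial membrane that is imaged as a marker of glial reaction and whose role in steroid synthesis is debated, was concentrated in vessels and microglia. Vessel cells held 25.6 and 38.6 CPM in pregnant libraries and 37.6 and 16 CPM in non-pregnant ones. Microglia held 5.03 and 3.73 CPM in pregnant and 5.38 and 8.11 CPM in non-pregnant libraries. The groups overlapped in vessels, and in microglia both pregnant values lay below both non-pregnant ones on 3 to 9 UMIs each. The thinned share of positive nuclei was 4.96% in vessels and 1.15% in microglia, against 0.0385% in excitatory and 0.0349% in inhibitory neurons. The part that RNA from outside the nucleus adds to these shares was not tested. Vessels were 0.815% of nuclei and held 22.6% of Tspo UMIs, and microglia were 4.62% of nuclei and held 15%. By edgeR, Tspo was 5.63 log2 units above the mean of the other classes in vessels (SE 0.544, adjusted p = 1.24e-23) and 2.99 above it in microglia (SE 0.575, adjusted p = 1.11e-06).

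Cyp11a1, the mitochondrial enzyme that cuts the cholesterol side chain and so starts all steroid synthesis, was found mainly in neurons. Excitatory neurons had 7.20 and 7.12 CPM in pregnant libraries and 6.18 and 7.03 CPM in non-pregnant ones. Inhibitory neurons had 2.37 and 3.51 CPM in pregnant and 2.79 and 3.16 CPM in non-pregnant libraries. Both pregnant values lay above both non-pregnant ones in excitatory neurons, and the groups overlapped in inhibitory neurons. Astrocytes had 1 UMI among 736 nuclei and OPC 1 among 502. Oligodendrocytes had 6 UMIs, at up to 1.60 CPM, microglia 3, at up to 2.15 CPM, and vessels 3, all in 1 pregnant library, at 8.52 CPM. The thinned share was 1.39% in excitatory and 0.585% in inhibitory nuclei, against 0.0444% in astrocytes, 0.0641% in OPC, 0.151% in oligodendrocytes, 0.217% in microglia and 0.156% in vessels. By edgeR, Cyp11a1 was Cyp11a1 3.53 log2 units above the mean of the other classes in excitatory neurons (SE 0.247, adjusted p = 2.71e-45) and 1.83 above it in inhibitory neurons (SE 0.354, adjusted p = 1.10e-06), folds that lean on the low counts in glia.

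Within the neurons Cyp11a1 was graded. L6 CT neurons, which project to the thalamus, averaged 12.8 ± 2.67 CPM over the 4 libraries (SD), as did L5/6 NP neurons with 12.8 ± 3.15 CPM, and L6 IT neurons averaged 9.55 ± 2.18 CPM. Lamp5 (8.12 ± 2.35 CPM), L5 ET (7.42 ± 1.11 CPM), L5 IT (7.36 ± 1.36 CPM) and L2/3 IT neurons (6.66 ± 0.614 CPM) followed, and their ranges overlapped. L4/5 IT neurons averaged 4.19 ± 0.593 CPM. Among inhibitory types Sst neurons had 2.70 ± 0.945 CPM, Vip neurons 0.902 ± 0.695 CPM and inhibitory cluster 13 0.646 ± 0.459 CPM, and the ranges of the last pair overlapped those of oligodendrocytes and microglia. Lamp5 neurons held 73 of the 118 inhibitory UMIs. Inhibitory cluster 13 scored best on the Pvalb list, with 3 of its markers detected. The genes that most set it apart from the other clusters included Eya4 of the Lamp5 list and Abtb3. Abtb3 is the current symbol of Btbd11 of the Pvalb list, and the naming by symbol did not match it. The cluster was therefore left with a number, which does not speak against a Pvalb identity.

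Fdx1, the ferredoxin that hands electrons to mitochondrial P450 enzymes, was found in every class. Astrocytes had 13.6 and 13.8 CPM in pregnant libraries and 8.91 and 15.2 CPM in non-pregnant ones. Excitatory neurons had 5.05 and 5.89 CPM in pregnant and 5.12 and 5.29 CPM in non-pregnant libraries. The groups overlapped in both classes. Microglia had 16.8 and 11.2 CPM in pregnant libraries and 6.45 and 5.41 CPM in non-pregnant ones, without overlap, on 6 to 10 UMIs each, too few to pass the filter for a test of pregnancy. Astrocytes were 0.95 log2 units above the mean of the other classes (SE 0.242, adjusted p = 4.73e-04 by edgeR), and no other class was called for Fdx1 in either direction.

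Of the pair of reductases, Srd5a1 encodes the 5α-reductase that acts on progesterone in brain, and it stood highest in oligodendrocytes, the myelin-forming cells. These had 11.2 and 11.6 CPM in pregnant libraries and 16 and 19.3 CPM in non-pregnant ones, and both pregnant values lay below both non-pregnant ones. OPC showed the same order at lower levels, with 3.46 and 2.65 CPM in pregnant and 7.32 and 6.35 CPM in non-pregnant libraries, on 2 to 7 UMIs each, too few to be tested. Excitatory neurons had 4.42 and 3.82 CPM in pregnant libraries and 4.08 and 4.38 CPM in non-pregnant ones, with overlap. The thinned share was 2.63% of oligodendrocytes, 0.826% of excitatory and 0.733% of inhibitory nuclei, and 0.133% of microglia. By edgeR, oligodendrocytes were 2.91 log2 units (SE 0.268, adjusted p = 2.52e-26) and excitatory neurons 1.19 (SE 0.248, adjusted p = 5.81e-06) above the mean of the other classes. Neuronal types were graded, from 2.21 ± 1.09 CPM in inhibitory cluster 13 to 6.65 ± 1.11 CPM in Lamp5 neurons. The ranges of these outer types, 0.588 to 2.94 CPM in cluster 13 and 5.13 to 7.62 CPM in Lamp5 neurons, did not overlap.

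Srd5a3 encodes a polyprenol reductase of protein glycosylation that is grouped with the 5α-reductases by sequence. Microglia had 13.4 and 13.7 CPM in pregnant libraries and 10.8 and 11.7 CPM in non-pregnant ones. Excitatory neurons had 3.52 and 3.64 CPM in pregnant and 3.34 and 3.58 CPM in non-pregnant libraries. The groups overlapped in excitatory neurons. In microglia both pregnant values exceeded both non-pregnant ones, on 8 to 13 UMIs each, and the test of that difference was not passed (log2 0.24, SE 0.510, adjusted p = 0.981 by edgeR). Microglia were 1.13 log2 units above the mean of the other classes (SE 0.298, adjusted p = 6.43e-04 by edgeR).

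Akr1c14, the mouse 3α-hydroxysteroid dehydrogenase of the step to allopregnanolone, was barely detected. Of its 27 UMIs, 16 lay in vessel cells, with 5 and 5 UMIs in pregnant libraries and 0 and 6 in non-pregnant ones. The vessel level was 14.2 and 14.8 CPM in pregnant libraries and 0 and 23.9 CPM in non-pregnant ones. The groups overlapped, and the count of 0 allows up to 28.2 CPM in its library. Excitatory neurons held 6 UMIs in 16081 nuclei. No UMI was found in astrocytes or OPC, where a count of 0 allows up to 1.24% and 1.36% of astrocytes in pregnant libraries and 2.33% and 2.08% in non-pregnant ones to hold a UMI, for counting error only. Vessels were called above the mean of the other classes by edgeR (adjusted p = 6.72e-14), and because the other classes were at or near 0 the fold is not given. The Akr1c genes resemble each other in sequence, and how reads that match several of them affect the Akr1c14 counts was not tested, so these counts are uncertain.

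Srd5a1 and Akr1c14, which act in sequence on progesterone, peaked in different cells. Of 25033 nuclei, 1500 had a Srd5a1 UMI and 22 an Akr1c14 UMI, and 1 nucleus, an excitatory one, had both. In vessels 11 nuclei had an Akr1c14 UMI and 1 had a Srd5a1 UMI. In oligodendrocytes 100 nuclei had a Srd5a1 UMI and 1 had an Akr1c14 UMI. A nucleus without a UMI of a gene is not shown to lack its transcript. Cyp11a1 and its electron carrier Fdx1 were both detected in 197 nuclei, 179 of them excitatory, and Cyp11a1 and Star in 131 nuclei, 117 of them excitatory. Of 16081 excitatory nuclei, 1736 had a UMI of Cyp11a1, 1479 of Fdx1 and 844 of Star. Whether such overlaps exceed what these counts and the depth would give was not tested.

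Cyp19a1, the aromatase that makes oestrogens from androgens, had 29 UMIs, of which 26 were in excitatory neurons and 2 in inhibitory neurons. Excitatory neurons held 11 and 7 UMIs in pregnant libraries and 0 and 8 in non-pregnant ones. As levels these were 0.148 and 0.104 CPM in pregnant libraries and 0 and 0.0901 CPM in non-pregnant ones, so the pregnant values were the higher ones, but the counts were too low for the gene to be tested. No Cyp19a1 UMI was found in astrocytes, oligodendrocytes, OPC, microglia or vessels, with the same limits in astrocytes as for Akr1c14.

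Hsd11b1 regenerates active corticosterone from its inert keto form, and its transcript marked astrocytes and a few groups of excitatory neurons. Astrocytes had 38.1 and 53.9 CPM in pregnant libraries and 26.7 and 49.6 CPM in non-pregnant ones, with overlap. They were 2.94% of nuclei and held 13.3% of Hsd11b1 UMIs. The thinned share was 7.79% of astrocytes, against 0.132% of OPC and 0.165% of oligodendrocytes. Astrocytes were 4.97 log2 units (SE 0.228, adjusted p = 4.71e-104 by edgeR) and excitatory neurons 1.32 (SE 0.261, adjusted p = 1.60e-06 by edgeR) above the mean of the other classes.

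Among excitatory types Hsd11b1 was uneven. L5 IT neurons averaged 12.5 ± 1.09 CPM over the 4 libraries (SD), L4/5 IT neurons 7.95 ± 1.12 CPM and L5 ET neurons 5.00 ± 2.77 CPM. L6 IT (0.828 ± 0.523 CPM), L5/6 NP (0.373 ± 0.746 CPM), L2/3 IT (0.369 ± 0.110 CPM) and L6 CT neurons (0.288 ± 0.272 CPM) lay far lower. The L4/5 IT signal sat in 1 of its 3 clusters. Cluster 10, whose nuclei also had the highest median UMI counts of the 3, had 19.9 and 26.4 CPM in pregnant libraries and 28.7 and 19.0 CPM in non-pregnant ones, with 214 of 721 nuclei positive. Cluster 0 averaged 2.93 ± 0.754 CPM and cluster 2 had 3 UMIs in 1334 nuclei. Cluster 28, of 74 nuclei and all from pregnant libraries, had the highest level of any group of cells named here, 69.6 and 72.1 CPM, with 54 positive nuclei and 128 UMIs. It scored best on the L4/5 IT and then the L5 ET marker list, and held 15.4% of all Hsd11b1 UMIs of the pregnant libraries. With no non-pregnant nuclei, it allows no comparison.

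**Figure D3:**
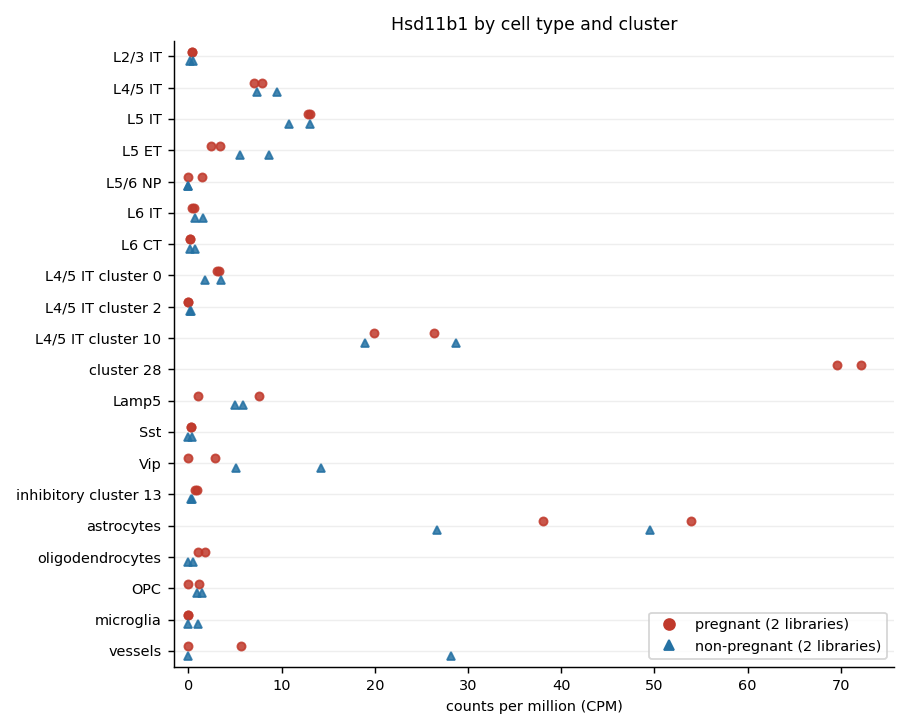
Hsd11b1 CPM (x axis, linear) in each cell type, in the 3 L4/5 IT clusters, in cluster 28 and in the glial and vessel classes, with pregnant libraries as red circles above non-pregnant libraries as blue triangles. Cluster 28 (69.6 and 72.1 CPM, pregnant only) and astrocytes lie farthest right, L4/5 IT cluster 10 and L5 IT neurons stand out among the other neurons, and in L5 ET neurons both pregnant values (3.36 and 2.45 CPM) lie left of both non-pregnant values (8.69 and 5.50 CPM).

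Cyp7b1, the 7α-hydroxylase that clears oxysterols and dehydroepiandrosterone, was the best measured of the 10 genes and was strong in astrocytes, OPC, vessels and 1 excitatory type. Astrocytes had 225 and 216 CPM in pregnant libraries and 173 and 201 CPM in non-pregnant ones. OPC had 160.5 and 138 CPM in pregnant and 164 and 163 CPM in non-pregnant libraries. In astrocytes both pregnant values exceeded both non-pregnant ones, and in OPC both lay below. Vessels had 128 and 104 CPM in pregnant and 244 and 71.8 CPM in non-pregnant libraries, with overlap, on 18 to 45 UMIs each. The thinned share was 30.5% of astrocytes, 23.8% of OPC, 19.4% of vessel nuclei, 11.4% of excitatory and 4.97% of inhibitory nuclei, against 0.889% of oligodendrocytes and 0.821% of microglia. By edgeR, astrocytes were 2.77 log2 units (SE 0.0997, adjusted p = 1.44e-167), OPC 2.31 (SE 0.117, adjusted p = 3.17e-84), vessels 1.38 (SE 0.188, adjusted p = 5.38e-12) and excitatory neurons 1.34 (SE 0.0881, adjusted p = 4.25e-51) above the mean of the other classes. Microglia lay below it (log2 difference -4.35, SE 0.267, adjusted p = 3.16e-58 by edgeR), as did oligodendrocytes (log2 difference -3.15, SE 0.239, adjusted p = 2.43e-38 by edgeR).

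Among neurons L5/6 NP cells stood apart for Cyp7b1, with 164 and 184 CPM in pregnant libraries and 213 and 219 CPM in non-pregnant ones. The next types, L5 ET (76.9 ± 9.72 CPM over 4 libraries, SD), L4/5 IT (72.3 ± 10.5 CPM), L5 IT (65.7 ± 7.62 CPM) and L2/3 IT (64.4 ± 5.84 CPM), each overlapped its neighbours in this order, but L5 ET (69.7 to 91.1 CPM) lay above L2/3 IT (55.8 to 68.0 CPM) in all libraries. L6 CT (32.4 ± 7.15 CPM) and L6 IT neurons (25.3 ± 4.22 CPM) were lower. Of the inhibitory types, Sst neurons had 55.3 ± 3.51 CPM and Lamp5, Vip and cluster 13 neurons 28.7 ± 7.11, 15.8 ± 7.56 and 15.4 ± 3.14 CPM. Cyp7b1 and Hsd11b1 were both detected in 554 nuclei, 104 of them astrocytes. Of 736 astrocytes, 438 had a UMI of Cyp7b1 and 157 of Hsd11b1, and an excess of overlap over these counts was not tested.

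**Figure D4:**
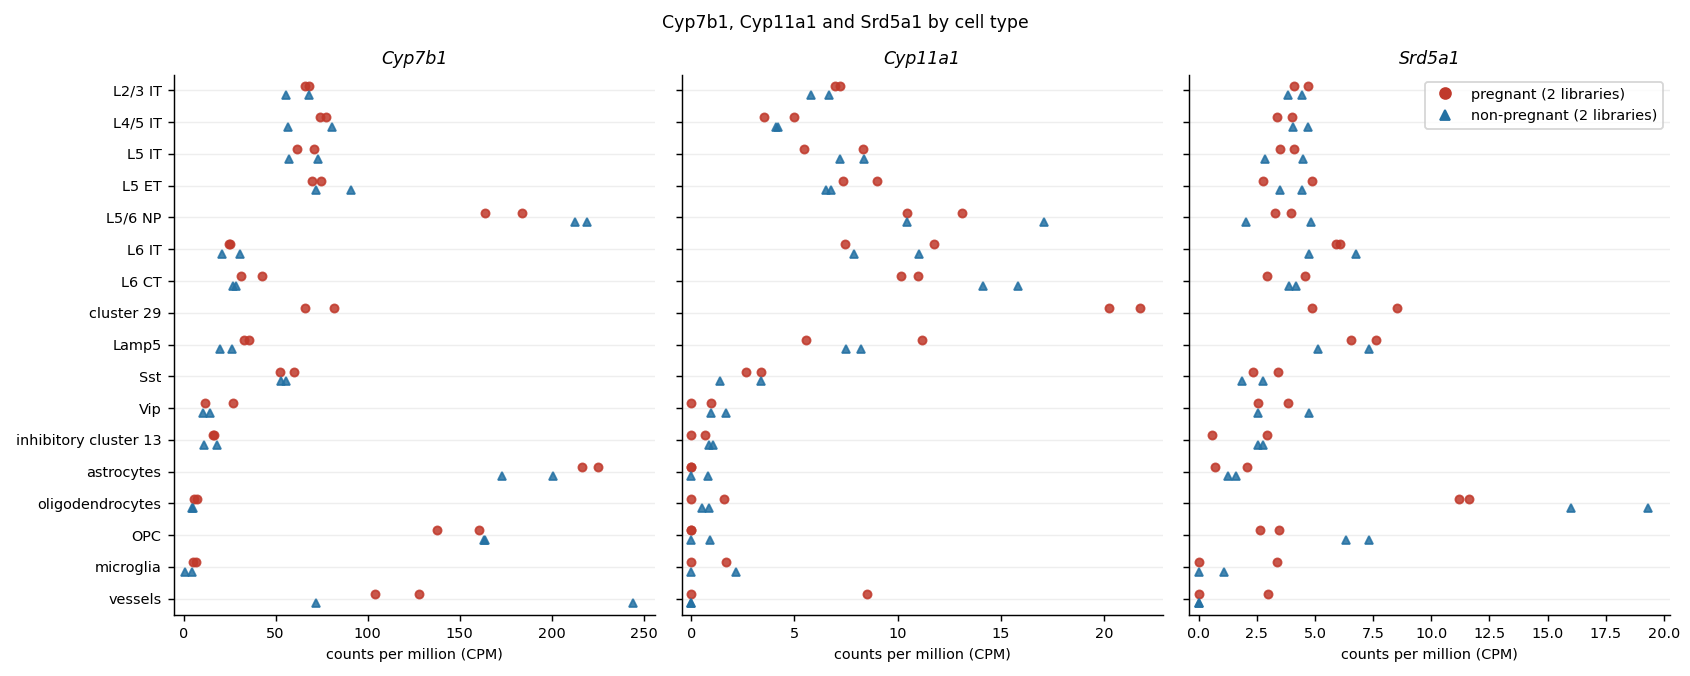
CPM (x axis, linear, own scale per panel) of Cyp7b1, Cyp11a1 and Srd5a1 by cell type, with pregnant libraries as red circles above non-pregnant libraries as blue triangles. Of the types plotted, Cyp7b1 is highest in astrocytes, L5/6 NP neurons and OPC, Cyp11a1 in L6 CT and L5/6 NP neurons, and in cluster 29, which has pregnant nuclei only, and Srd5a1 in oligodendrocytes, where the non-pregnant libraries (16 and 19.3 CPM) lie right of the pregnant ones (11.2 and 11.6 CPM).

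For each gene with at least 200 UMIs, the genes with the most similar level across the 15 cell types were found by Pearson's r of mean log2(CPM + 1). This is a description over 15 points that share the same 4 libraries. Vessel cells are not among the 15 types, so levels in vessels, where Pdgfrb is a marker of mural cells, do not enter r. Cyp11a1 was most like Adgrd1 (r = 0.942), Lzts1 (0.940) and Skap1 (0.938), and Srd5a1 most like Eml1 (r = 0.921), Map7 (0.901) and Agpat4 (0.896). Cyp7b1 was most like Farp1 (r = 0.894), Ccdc88c (0.894) and Rnf182 (0.888), and Hsd11b1 most like Sypl2, Pdgfrb and Bcar3 (r = 0.866, 0.866 and 0.862). Fdx1 was closest to Tmem276 (r = 0.941), Ubr7 (0.917) and Cyb5b (0.914), Srd5a3 to Upf1 (r = 0.928), Hmgb1 (0.925) and Zfp429 (0.923), and Star to Recql5 (r = 0.959), Wdcp (0.925) and Med20 (0.918). The 3 genes with fewer UMIs were not compared.

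Whether mid-gestation pregnancy changed these genes was asked with the same kind of edgeR fit on counts summed per library, with the groups as its term. In whole libraries, the number of cells of a type and the RNA per cell cannot be told apart. There 0 of 8 genes tested were called (1.19% of all 20910 genes), and 0 had an unadjusted p below 0.05 (2680 of all genes). DESeq2 gave 7 of them an adjusted p and called 0. The log2 ratios, pregnant over non-pregnant, of the 8 genes ran from -0.10 for Srd5a1 to 0.34 for Tspo with a median of 0.07, beside a median of 0.01 over all genes tested. Cyp11a1 had both pregnant values above both non-pregnant ones, with 6.69 and 6.71 CPM in pregnant libraries and 5.52 and 6.27 CPM in non-pregnant ones (log2 0.17, SE 0.124, adjusted p = 0.655 by edgeR), and the log2 ratio was 0.01 with equal numbers of nuclei per cell type.

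Within classes no gene was called. The counts were 0 of 8 in excitatory neurons (1.12% of all genes called), 0 of 7 in inhibitory neurons (0.2%), 0 of 3 in astrocytes (0.334%) and 0 of 4 in oligodendrocytes (0.140%). They were 0 of 1 in OPC (0.125% of all genes called), 0 of 1 in microglia (0.767%) and 0 of 2 in vessels (0.0160%). Over all genes, 2329 of 19227 in excitatory neurons, 1134 of 15001 in inhibitory neurons and 862 of 10688 in oligodendrocytes had an unadjusted p below 0.05. Of the 26 pairs of gene and class above, 2 had such a p. One was Cyp7b1 in inhibitory neurons, with 32.2 and 32.6 CPM in pregnant libraries and 26.5 and 24.9 CPM in non-pregnant ones (log2 0.34, SE 0.112, adjusted p = 0.397 by edgeR). The other was Srd5a1 in oligodendrocytes, whose values are given above (log2 -0.70, SE 0.316, adjusted p = 0.583 by edgeR). In both, the pregnant and non-pregnant values did not overlap, which with 2 libraries per group is description only. The difference of these effects from that in excitatory neurons did not pass the test either, at log2 0.27 for Cyp7b1 in inhibitory neurons (SE 0.169, adjusted p = 1 by edgeR) and log2 -0.69 for Srd5a1 in oligodendrocytes (SE 0.339, adjusted p = 0.588 by edgeR).

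**Figure D5:**
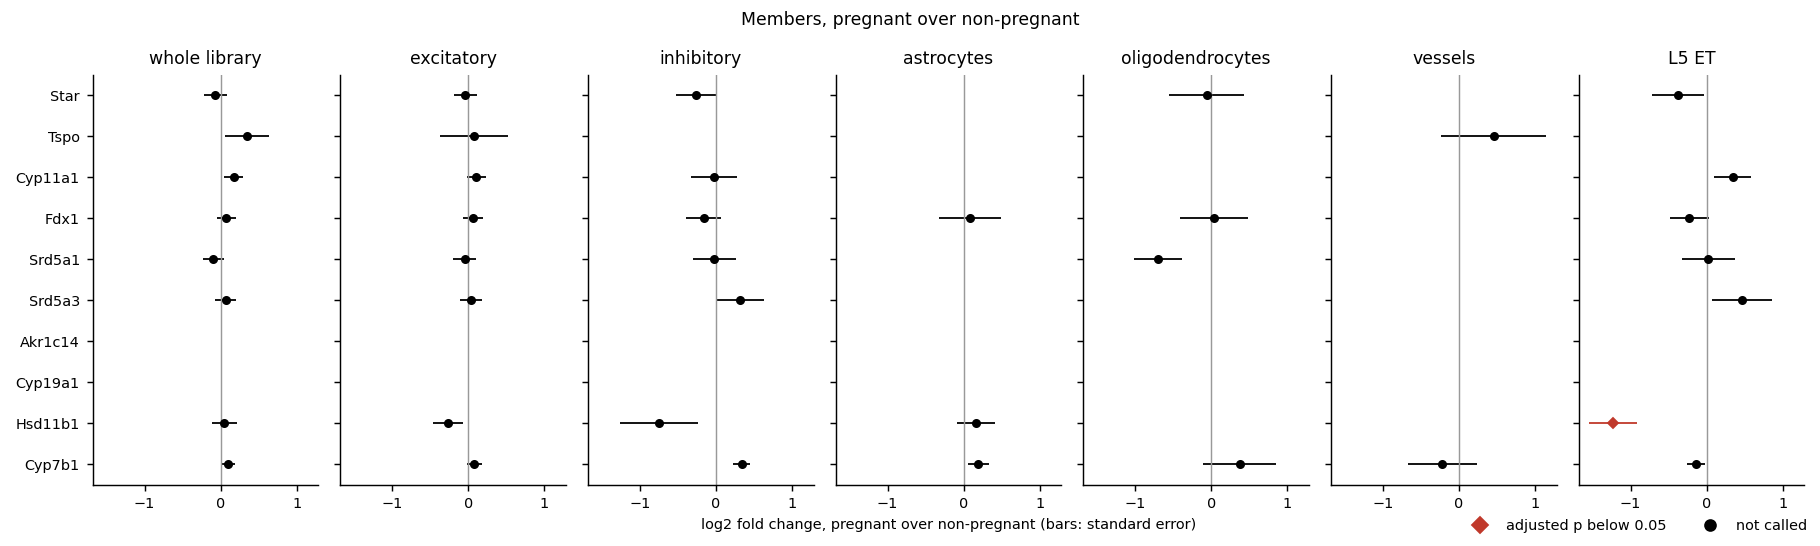
Log2 ratio of pregnant over non-pregnant (x axis; points with bars of ± 1 standard error) for each gene tested in the whole library, in 5 cell classes and in L5 ET neurons. The red diamond, Hsd11b1 in L5 ET neurons at -1.24, is the 1 value with an adjusted p below 0.05.

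Among the finer types 1 of 65 pairs of gene and type was called, and 7 had an unadjusted p below 0.05. Over all genes, 2090 of 13632 in L5 ET, 1429 of 13279 in L6 CT, 1071 of 10009 in L5/6 NP and 603 of 11309 in Lamp5 neurons had such a p. Astrocytes, oligodendrocytes, OPC and microglia are the same nuclei here as in the classes, so Srd5a1 in oligodendrocytes is counted again among the 7. The call was Hsd11b1 in L5 ET neurons, the deep-layer cells that project out of the telencephalon. They had 3.36 and 2.45 CPM in pregnant libraries, on 38 and 22 UMIs, against 8.69 and 5.50 CPM in non-pregnant ones, on 45 and 26 UMIs. Both pregnant values lay below both non-pregnant ones. Hsd11b1 was detected in 9.73% (95% Wilson interval 6.86 to 13.6) and 7.38% (4.72 to 11.4) of L5 ET nuclei in pregnant libraries and in 16.2% (11.7 to 21.9) and 15.9% (10.5 to 23.2) in non-pregnant ones, and the thinned shares were 0.654% and 0.500% against 2.01% and 1.22%. Median depth was 35981.5 and 31601 UMIs per pregnant nucleus and 24259 and 35095.5 per non-pregnant nucleus. The log2 ratio was -1.24 (SE 0.313, adjusted p = 0.0427 by edgeR), where 1 of 7 genes was called (2.35% of all genes in L5 ET neurons, and 0.829% called lower). DESeq2 gave a log2 ratio of -1.24 with an adjusted p of 0.311, and by edgeR the call was lost without pregnant replicate 2 (adjusted p = 0.196) or without non-pregnant replicate 1 (0.312).

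Levels of some marker lists in the L5 ET nuclei also differed between the groups. A change in cell make-up and a change in expression within the same cells cannot be told apart here. The summed level of the 7 L5 IT markers was 813 and 759 CPM in pregnant and 519.5 and 502 CPM in non-pregnant L5 ET nuclei, and that of the 7 L5/6 NP markers 862 and 1042 CPM in pregnant and 375 and 411 CPM in non-pregnant ones. The L5 ET markers themselves summed to 627 and 626 CPM in pregnant and 480.1 and 495 CPM in non-pregnant nuclei, and none of these 3 lists had a marker at 0 except the L5/6 NP list, with Slc17a8 at 0 in 3 of the libraries. The 7 L4/5 IT markers summed to 208 and 240.1 CPM in pregnant and 241 and 178 CPM in non-pregnant nuclei, with overlap. The 8 astrocyte markers summed to 164 and 167 CPM in pregnant and 170 and 128 CPM in non-pregnant nuclei, with overlap, and Aqp4, Gjb6 and Fgfr3 were at 0 in both non-pregnant libraries. The L5 IT and L5/6 NP lists share Etv1, so their sums are not independent. How much single markers add to a sum was not examined. The part of these group differences in the Hsd11b1 value was not tested. In L5 IT neurons, whose level of Hsd11b1 was higher, pregnant libraries had 13.1 and 12.8 CPM and non-pregnant ones 13.1 and 10.8 CPM, with overlap. Vip neurons had 0 and 2.88 CPM in pregnant libraries and 14.3 and 5.09 CPM in non-pregnant ones, without overlap, on 0 to 15 UMIs each, and were not tested for Hsd11b1.

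No gene was called in the remaining types. Glial types have the counts of their classes above, and the neuronal ones follow. The counts were 0 of 7 in L2/3 IT (0.301% of all genes called), 0 of 7 in L4/5 IT (0.114%), 0 of 7 in L5 IT (1.11%), 0 of 2 in L5/6 NP (1.77%), 0 of 6 in L6 CT (0.851%) and 0 of 6 in L6 IT neurons (1.00%). They were 0 of 6 in Lamp5 (0.0707% of all genes called), 0 of 3 in Sst (0.0924%), 0 of 1 in Vip (0.0327%) and 0 of 4 in inhibitory cluster 13 (0.789%). L6 CT neurons held 3 of the 7 small unadjusted p-values. Fdx1 there stood at 6.26 and 6.93 CPM in pregnant and 4.17 and 3.58 CPM in non-pregnant libraries (log2 0.79, SE 0.285, adjusted p = 0.321 by edgeR), and Cyp7b1 at 42.8 and 31.4 CPM in pregnant and 28.5 and 27.0 CPM in non-pregnant libraries (log2 0.45, SE 0.172, adjusted p = 0.366 by edgeR). Both genes had pregnant values above the non-pregnant ones. There Cyp11a1 stood at 11.0 and 10.1 CPM in pregnant and 14.1 and 15.8 CPM in non-pregnant libraries (log2 -0.50, SE 0.195, adjusted p = 0.376 by edgeR). Its groups did not overlap, nor did they in L2/3 IT neurons, where the order was the opposite with 6.95 and 7.22 CPM in pregnant and 5.80 and 6.67 CPM in non-pregnant libraries; the difference between these types was not tested. In L5/6 NP neurons, where the pregnant values of Cyp7b1 given above lay below the non-pregnant ones, its log2 ratio was -0.30 (SE 0.130, adjusted p = 0.357 by edgeR), and in Lamp5 neurons it was 0.58 (SE 0.214, adjusted p = 0.782 by edgeR).

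The other genes of the pathway were put through the same tests, and their counts are read beside the shares of all genes. In the whole library 0 of 35 were called (1.19% of all genes), with a median log2 ratio of 0.05. Of the 35, 5 had an unadjusted p below 0.05, against 2680 of all 20910 genes. In excitatory neurons 1 of 30 was called higher and 0 lower (1.12% of all genes called), with a median of 0.02 beside 0.01 over all genes. In inhibitory neurons 0 of 26 (0.2% of all genes called), in astrocytes 0 of 22 (0.334%), in oligodendrocytes 0 of 22 (0.140%), in OPC 0 of 15 (0.125%), in microglia 0 of 18 (0.767%) and in vessels 0 of 10 (0.0160%) were called. At such shares a count at or near 0 says nothing particular to the list.

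The called gene was Stard5, which encodes a START-domain lipid carrier. In excitatory neurons it had 11.5 and 13.502 CPM in pregnant libraries and 8.04 and 6.88 CPM in non-pregnant ones, without overlap (log2 0.73, SE 0.122, adjusted p = 0.0302 by edgeR). Its level differed far more between cell types than between groups. L5/6 NP neurons had 207 and 276 CPM in pregnant libraries and 263 and 216 CPM in non-pregnant ones, while L2/3 IT neurons averaged 1.00 ± 0.404 CPM in pregnant and 0.354 ± 0.0883 CPM in non-pregnant libraries (SD, n = 2 each). In L5/6 NP neurons the log2 ratio was 0.02 (SE 0.133, adjusted p = 0.990 by edgeR). L6 CT neurons averaged 27.9 ± 0.185 CPM in pregnant and 19.4 ± 1.90 CPM in non-pregnant libraries. The means went the other way in L5 IT (5.54 in pregnant, 6.28 CPM in non-pregnant libraries) and L6 IT neurons (0.785 and 1.35 CPM). With the L5/6 NP nuclei left out, a setting added after the data had been seen, the excitatory log2 ratio was 0.58 and no longer called (adjusted p = 0.133 by edgeR), and the call was also lost without pregnant replicate 1 (0.368) or 2 (0.351). In the whole library with equal numbers of nuclei per type the log2 ratio was 0.07. The part of cell make-up in the excitatory difference was not tested.

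In L5 ET neurons 1 of 25 other pathway genes was called (2.35% of all genes there, and 0.829% called lower), Atad3a, an ATPase of the inner mitochondrial membrane, and it is named after its values were seen. It had 43.9 and 46.5 CPM in pregnant libraries and 72.4 and 63.0 CPM in non-pregnant ones, without overlap (log2 -0.55, SE 0.112, adjusted p = 0.0105 by edgeR). DESeq2 gave an adjusted p of 0.0721, and without pregnant replicate 1 the adjusted p by edgeR was 0.0602.

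Some of the genes overlap others in the reference annotation GENCODE M21. M21 belongs to an earlier build than the GRCm39 used for the counting, so partners named here may be absent from the annotation counted. Tspo and Srd5a1 overlap Mcat and Nsun2 on the other strand, and Hsd11b1 overlaps Lamb3 and 4930570N18Rik on the other strand. On its own strand Cyp11a1 overlaps Gm17322, Srd5a1 Gm17108, Akr1c14 the pseudogene Gm18857, Hsd11b1 Gm38118 and Cyp7b1 Gm23686. If the counting annotation holds both genes of such a pair, reads in the shared stretch could not be told apart by strand. The sources used here do not state the strand setting of the counting, so reads of partners on the other strand cannot be told apart either.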

How the data were processed

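The deposited matrices hold UMI counts per gene and barcode, made with Cell Ranger 10.0.0 and the GRCm39 build, per the submitters' processing notes. Nuclei with at least 500 genes and at most 5% mitochondrial UMIs were kept, and the top 5% by a doublet score (share of simulated doublets among 60 neighbours) were left out of each library; a check with 342 hidden doublets found 34.5% of them. Clusters came from 2000 variable genes, 40 components and the Leiden method at resolution 1 (Python 3.11.15, scikit-learn 1.9.0, leidenalg 0.10.2). Named types have at least 50 nuclei in every library.

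Counts summed per library were tested with edgeR 4.0.16 in R 4.3.3 (TMM scaling, a filterByExpr minimum of 10 counts, p-values adjusted by Benjamini-Hochberg over all genes of a fit), and DESeq2 1.42.0 was an alternative. Comparisons of a class with the others are given from a fit without the count filter in place of the planned filtered one, a change made after seeing the data. On simulated counts, 84% of genes changed 2-fold were called in the whole library, 78% in excitatory neurons, 66% in oligodendrocytes, 52% in astrocytes, 44% in microglia and 32% in vessels. The changed genes were drawn at random from all genes that passed the filter. Rates at the counts of the 10 genes, most of them low, were not computed. Shares have 95% Wilson intervals, and a count of 0 allows 3 counts. Intervals cover counting error only. The alternatives are listed in the closing section.

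The members and the lists were chosen with earlier results of these data known. All 10 genes are named, with called pathway genes and the 3 genes most like each member.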

Additional observations from a re-analysis of the deposited data

Results flagged for a closer look

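Clusters 28 and 29 lie outside the comparisons, since neither has a nucleus from a non-pregnant library. Hsd11b1 averaged 70.9 ± 1.79 CPM in cluster 28 over the pregnant libraries (SD, n = 2), with 128 UMIs in 74 nuclei, 54 of them positive. Cyp11a1 averaged 21.0 ± 1.07 CPM in cluster 29 over the pregnant libraries (SD, n = 2), with 80 UMIs in 377 nuclei, 63 of them positive, and no marker list named that cluster. Whether these cells reflect pregnancy or the dissected area cannot be told apart.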

How the results depend on the processing

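With 2 libraries per group, the number of genes called for pregnancy depended on the setting. With 1 library left out, the lone library of its group is assumed to vary like the other group. In whole libraries 248 genes were called, against 620 without the count filter, 554 by DESeq2, 621 with the replicate block and 70 with equal nuclei per type, and 0 to 1945 with 1 library left out (0 without pregnant replicate 1, 2 without pregnant replicate 2). In excitatory neurons the count was 215, against 712, 493 and 456 (no filter, DESeq2, block) and 1 to 1968 with 1 library left out. In inhibitory neurons it was 30, against 191 with no filter, 127 with the block, 19 with doublets kept and 14 to 366 with 1 library left out. In astrocytes it was 35, against 1 by DESeq2, 23 with doublets kept and 21 to 84 with 1 library left out. In oligodendrocytes it was 15, against 125 with no filter, 1 by DESeq2, 63 with the block, 3 with doublets kept and 17 to 366. In OPC it was 11, against 19 with no filter, 0 by DESeq2, 7 with doublets kept, 4 at resolution 2 and 7 to 26. In microglia it was 73, against 112 with no filter, 1 by DESeq2, 13 with the block and 25 to 147. In vessels it was 1, against 46 with no filter, 3 with the block, 0 with doublets kept and 18 to 69. The cause of these shifts was not tested. Deviations of same-numbered libraries from their group means were nearly uncorrelated (-0.021 in whole libraries and 0.00468 in excitatory neurons). With 2 libraries per group, this cannot show whether the numbers pair them. With the replicate block, the adjusted p of Hsd11b1 in L5 ET neurons was 0.0180 by edgeR. Over the fine types DESeq2 called 0 pairs of gene and type, and 0 to 2 were called with 1 library left out.

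The calls of higher expression in a class in the filtered fit were kept in every alternative that gave a value. Akr1c14 in vessels had no value in some of the fits with 1 library left out. Cyp11a1 did not pass the filter, so its calls in excitatory and inhibitory neurons were not put through these alternatives. Some calls of lower expression were lost, among them Cyp7b1 in inhibitory neurons (adjusted p = 0.297 at resolution 2, by edgeR). Pregnancy effects that changed sign were uncalled. The log2 ratio of Hsd11b1 in whole libraries was 0.05, against -0.032 with doublets kept, -0.12 without clusters 22, 27, 28 and 29 and -0.21 with equal nuclei per type, and in excitatory neurons -0.26, against 0.014 with those clusters included. Cyp11a1 in inhibitory neurons turned to 0.088 with doublets kept, and at resolution 2 Star and Fdx1 in oligodendrocytes turned to 0.071 and -0.094. With 1 library left out, the log2 ratios that changed sign ran as follows. In whole libraries they were -0.026 to 0.23 for Cyp7b1, -0.012 to 0.15 for Fdx1, -0.15 to 0.27 for Hsd11b1 and -0.18 to 0.026 for Star. In excitatory neurons they were -0.057 to 0.22 for Cyp7b1, -0.017 to 0.12 for Fdx1, -0.52 to 0.020 for Hsd11b1, -0.20 to 0.089 for Srd5a1, -0.018 to 0.085 for Srd5a3, -0.13 to 0.029 for Star and -0.40 to 0.65 for Tspo. In inhibitory neurons they were -0.30 to 0.19 for Cyp11a1, -0.41 to 0.048 for Fdx1 and -0.21 to 0.14 for Srd5a1. In astrocytes they were -0.21 to 0.62 for Fdx1 and -0.17 to 0.78 for Hsd11b1, in oligodendrocytes -0.27 to 0.45 for Fdx1 and -0.42 to 0.30 for Star, and in vessels -1.06 to 0.64 for Cyp7b1 and -0.22 to 0.94 for Tspo. Depth limits Akr1c14, Cyp19a1 and Tspo most, with 27, 29 and 133 UMIs in all.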
